A study of Mus musculus with 12 samples.

Results

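The Spata genes carry the symbol "spermatogenesis associated", and nascent transcription at their promoters was followed through meiotic prophase I in mouse spermatocytes. Members were the autosomal protein-coding genes of GENCODE M21 (mm10) whose symbol starts with Spata and a digit, 28 of 20807 genes. Spermatocytes were separated by sedimentation (STAPUT) from testes of adult wild-type mice into 3 fractions, enriched for leptonema/zygonema (LZ), pachynema (P) or diplonema (D), with no treatment and the same WT genotype in every fraction. The fractions were enriched, not pure, and each was measured in 4 leChRO-seq libraries, 12 in all. LeChRO-seq sequences RNA still held by engaged RNA polymerase, and dREG is a classifier that calls active promoters and enhancers from the paired, divergent pattern of such reads.

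The data analysed are 1 deposited dREG peak list per substage, called on the 4 merged libraries, with 71107 peaks in LZ, 68352 in P and 38603 in D. The read depth of the libraries was not analysed here, and the D list is the shortest. Each peak has a dREG score, which is higher where the initiation pattern is clearer, has no fixed unit and is not scaled between substages. Scores ran from 0.246 to 1.632 in LZ (median 0.586), from 0.239 to 1.578 in P (0.572) and from 0.231 to 1.425 in D (0.532). Because the libraries were merged before calling, no value from these lists has a replicate error and they allow no test between substages. The 12 libraries were not analysed separately here.

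The symbol groups genes by expression or phenotype in the testis, not by descent, so the members differ widely in function. Some act in sperm structure, such as the head-tail junction, the acrosome or the mitochondria of the midpiece. Others act in most tissues, and relatedness by sequence is found mainly in the Spata31 genes and in the pair Spata2 and Spata2l. Many germline genes are first transcribed in meiotic prophase, before their proteins are used in the spermatid.

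A gene was called in a list when the nearest edge of a peak lay under 1000 bp from any of its annotated transcription start sites (TSS). A called gene took its highest-scoring such peak, given as the percentile of that score among all peaks of the same list, where 100 is the highest score. Differences between substages were read from these percentiles, in points, and 10 points was used as a fixed size, not as a significance threshold.

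All 28 Spata genes were called in LZ, 26 in P and 24 in D. Among all autosomal protein-coding genes, 60.7% were called in LZ, 61.2% in P and 52.3% in D, against 100%, 92.9% and 85.7% of the Spata genes. The same 24 members were called in all 3 lists (85.7%, against 50.2% of all genes), and no member was missing from every list. A fraction with fewer cells of a type and one with less RNA per cell cannot be told apart in such merged lists. Every call also held by the stricter criterion of a peak lying over an annotated TSS (28, 26 and 24 members), so the 1000 bp limit decided none of them, whereas 57.0%, 57.4% and 48.6% of all genes had a covered TSS. The symbol families Tex and Spag, also named for the testis and sperm, gave shares of the same kind. Of 30 Tex genes, 29, 28 and 26 were called in LZ, P and D, and of 12 Spag genes, 10, 9 and 9.

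**Figure D1:**
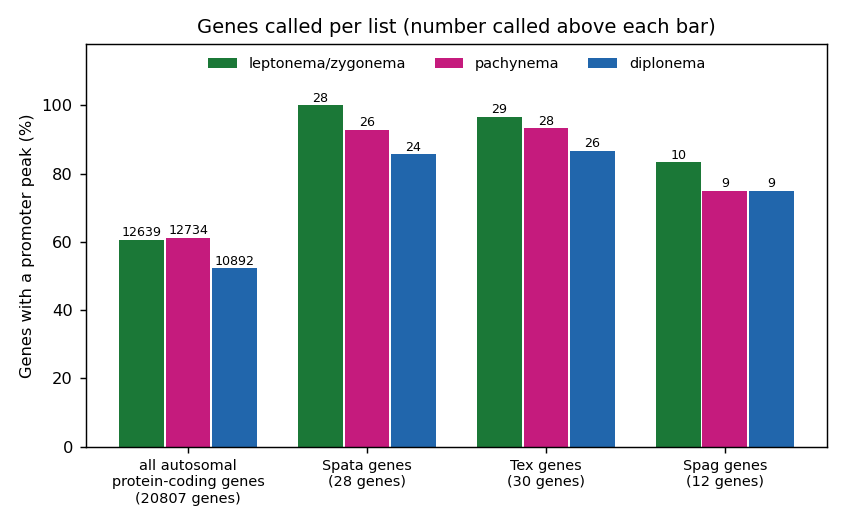
Share of genes with a promoter peak (vertical axis, %) in each substage list (colours) for all autosomal protein-coding genes and for the Spata, Tex and Spag genes, with the number called above each bar. The Spata bars stand at 100%, 92.9% and 85.7%, against 60.7%, 61.2% and 52.3% for all genes.

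Annotated starts and shared promoters were about as frequent in the Spata genes as in all genes. The members had a median of 3.5 annotated TSS positions, against 3 for all genes, and 6 of them had a single TSS (21.4%, against 21.2%). Of these single-start members 6 were called in LZ, 5 in P and 4 in D, while 34.6%, 34.9% and 28.2% of all genes with a single TSS were called. A promoter peak that also lay near another gene cannot be assigned to one of them. The peak taken lay near a start of another annotated gene, of any type, for 9 members in LZ (32.1%), 7 in P (26.9%) and 7 in D (29.2%), against 33.6%, 33.6% and 36.1% of all called genes. Near a start of another protein-coding gene it lay for 6 members in each list. In total 10 members took a peak near another annotated gene in some list: Spata1, Spata2, Spata2l, Spata3, Spata4, Spata5, Spata17, Spata24, Spata33 and Spata48.

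Where called, the Spata promoters were mostly high in the lists of LZ and P. The median percentile of the called members was 88.4 in LZ and 91.0 in P, against 83.1 and 84.8 for all called genes, and in D it was 79.2 against 78.9. The called Tex genes had medians of 90.2 in LZ and 88.7 in P, and the called Spag genes 88.0 and 93.5. In D the medians of both families were above that of the Spata genes. High percentiles were therefore not particular to the Spata genes. Each value is the highest of a gene's promoter peaks. The called members had a median of 3 such peaks in LZ and in P, against 2 for all called genes, and in D both had 2. What the number of peaks adds to the percentiles was not tested. With the peak over the TSS alone, the member medians were 87.1 in LZ, 86.5 in P and 78.2 in D, and those of all genes are not given here. At or above the percentile of 90 stood 12 of 28 members in LZ (42.9%, against 31.0% of all called genes), 14 of 26 in P (53.8% against 36.3%) and 7 of 24 in D (29.2% against 27.8%). The spread was wide, from 33.8 to 100 in LZ, from 13.2 to 100 in P and from 31.2 to 99.4 in D.

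**Figure D2:**
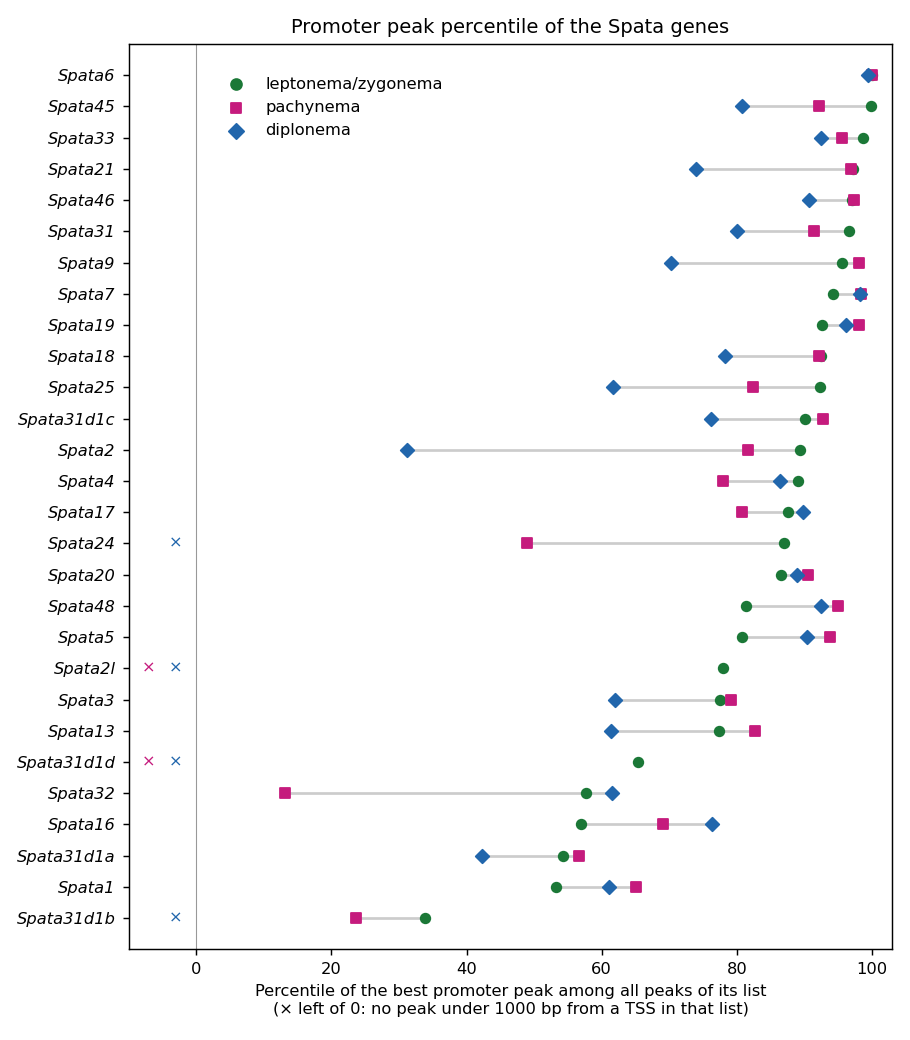
Percentile of the best promoter peak of each Spata gene among all peaks of its list (horizontal axis), 1 row per gene ordered by its LZ value, with circles for LZ, squares for P and diamonds for D; crosses left of 0 mark lists with no promoter peak. Spata6 stands at 100, 100 and 99.4, and 4 genes have at least 1 cross.

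The marker genes of the cell types that the fractions could hold were examined in the same way. All 6 spermatocyte markers were called in every list, with median percentiles of 90.9 in LZ, 95.2 in P and 99.0 in D. Of the Sertoli cell markers 2 of 4 were called in LZ (Gata4 and Sox9) and 3 of 4 in P and in D (with Wt1), with medians of 48.6, 58.3 and 43.1, while Amhr2 was called in none. None of 4 Leydig cell and none of 4 blood and macrophage markers was called in any list. Of 4 spermatogonial markers 3, 3 and 2 were called, with medians of 71.3, 74.4 and 41.6, and Gfra1 was called in none. All 4 spermatid markers were called in each list, with medians of 69.0, 64.7 and 79.7, of which Acrv1 stood highest in LZ and P (97.6 and 98.1) and Tnp1 in D (90.7). Prm1 and Prm2 had the same percentile in each list (58.7, 48.8 and 71.7), so these medians may count 1 peak for both genes. Spermatocytes transcribe some spermatid genes too, and the part of other cells in the Spata values was not tested.

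Among members that build the sperm tail and head, Spata6 had the strongest promoter peak of the whole group. Spata6 is needed for the connecting piece that joins head and tail. Its best peak lay over an internal annotated start (chr4:111777081-111777760 in LZ, chr4:111777101-111777750 in P and chr4:111777141-111777740 in D). The scores were 1.52, 1.488 and 1.262, which ranked 15 of 71107 peaks in LZ, 8 of 68352 in P and 246 of 38603 in D. The start at the 5′ end of the gene, about the region chr4:111719471-111721040, also had peaks in each list, at percentiles of 99.1, 99.2 and 95.1. Both Spata6 starts therefore stayed at the top of every list. Spata46, which takes part in shaping the sperm nucleus, was likewise high throughout. Its peak over its only TSS, chr1:170308431-170309120 in LZ, chr1:170308421-170309290 in P and chr1:170308521-170309030 in D, had scores of 1.301, 1.27 and 1.023 and percentiles of 97.0, 97.3 and 90.7.

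The acrosome genes Spata16 and Spata32 had lower and more variable values. In humans, mutation of SPATA16 is known to give round-headed sperm without an acrosome. In LZ the best peak of mouse Spata16 lay 770 bp upstream of the TSS (chr3:26636261-26636850, score 0.656, percentile 56.9) in an element absent from the other lists. In P and D the best peak lay over the TSS (chr3:26637261-26638060, score 0.779, percentile 69.0, and chr3:26637351-26637740, 0.805, 76.3). The LZ peak over that TSS scored 0.338, at the percentile of 11.2, so at the TSS itself Spata16 went from near the bottom of the LZ list to the upper part of the D list. Spata16 also held peaks in its gene body, at least 1000 bp from every GENCODE start, 6 in LZ, 7 in P and 1 in D, the most of any member in LZ and in P. It is a long gene (chr3:26637620-26983212, beside a median member length of 10415 bp), and these counts are not scaled to length.

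Spata32 had the lowest value of any member in P. Its percentiles were 57.7 in LZ (chr11:103218131-103218640, score 0.665), 13.2 in P (chr11:103218311-103218890, 0.341) and 61.5 in D (chr11:103217661-103218170, 0.634). The D value came from another peak, 262 bp downstream of the TSS, and the peak over the TSS stood at 24.8 in D. Spata32 was thus low in P by either reading, but its return in D was 48.3 points for the best peak and smaller at the TSS itself.

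The mitochondrial group, Spata18, Spata19 and Spata33, was high in LZ and P. Spata19 acts in the mitochondria of the sperm midpiece, and its percentiles were 92.6, 98.0 and 96.2 in LZ, P and D, with scores of 1.214, 1.292 and 1.14. Its peaks lay at chr9:27396381-27397080, chr9:27396431-27397440 and chr9:27397021-27397480. Spata33, which links calcineurin to sperm mitochondria, stood at 98.6, 95.6 and 92.5, with scores of 1.353, 1.231 and 1.058 and peaks at chr8:123212491-123213160, chr8:123212401-123213150 and chr8:123212451-123213250. Chmp1a starts within the same peak on the other strand, so the Spata33 values cannot be told apart from those of Chmp1a. Spata18, a gene of mitochondrial quality control, stood at 92.5, 92.2 and 78.3, and its best peak lay between 219 and 299 bp from the nearest TSS in each list. The peak over the Spata18 TSS was lower, at 78.9, 66.4 and 65.8.

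Members with roles outside sperm structure did not move together. Spata7, a protein of the photoreceptor connecting cilium, gained rank from LZ to P and kept it in D, with percentiles of 94.2, 98.3 and 98.2 and scores of 1.243, 1.303 and 1.203 (chr12:98627331-98628520, chr12:98627711-98628500 and chr12:98627701-98628390). Spata5, an AAA ATPase of ribosome biogenesis, stood at 80.7 in LZ, 93.8 in P and 90.3 in D, with scores of 1.008, 1.196 and 1.017. Its peaks (chr3:37420001-37420680, chr3:37420031-37420690 and chr3:37420051-37420460) also lie near the start of Nudt6. Spata13 stood at 77.3, 82.6 and 61.4, with scores of 0.947, 0.993 and 0.633 and peaks at chr14:60634281-60634920, chr14:60634421-60634860 and chr14:60634271-60634850.

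Spata2 stood lower, and Spata2l was not called, after LZ. Spata2 is an adaptor that brings the deubiquitinase CYLD to TNF receptor signalling complexes, and Spata2l is its paralogue. Spata2 stood at 89.3 in LZ (chr2:167492541-167493420, score 1.159), 81.7 in P (chr2:167492501-167493510, 0.977) and 31.2 in D (chr2:167492531-167493510, 0.411), the lowest value of a called member in D. Rnf114 starts within the same peaks. Spata2l was called in LZ alone (chr8:123235661-123236520, score 0.959, percentile 78.0). The nearest peak to a Spata2l TSS was 17728 bp away in P and 17788 bp away in D, so no weaker peak lay just beyond the 1000 bp limit. The LZ peak of Spata2l also lies near 4933417D19Rik.

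The Spata31 genes were the only related cluster, and they held 2 of the 4 members whose call differed between lists. Spata31, Spata31d1a, Spata31d1b, Spata31d1c and Spata31d1d all lie on chromosome 13, with Spata31d1a, Spata31d1b and Spata31d1d beside each other and Spata31 and Spata31d1c further along. Spata31 itself had percentiles of 96.5, 91.4 and 80 in LZ, P and D. Spata31d1c stood at 90, 92.7 and 76.1, with scores of 1.17, 1.175 and 0.802 over its single TSS. These 2 genes were called in every list, and both stood lower in D. Spata31d1d was called in LZ alone (chr13:59731541-59732080, score 0.758, percentile 65.3), with the nearest peaks 1579 bp away in P and 4922 bp away in D. Spata31d1b was called in LZ (chr13:59711931-59712490, score 0.459, percentile 33.8) and in P (chr13:59711951-59712430, 0.39, 23.6), and its nearest D peak lay 1354 bp away. Spata31d1a stood at 54.3, 56.6 and 42.3, but its D peak lay over another annotated start (chr13:59710001-59710520) than its LZ peak (chr13:59706061-59706480). The deposited peaks do not show how reads that match more than 1 of these related genes were placed.

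The 250 bases upstream of the RefSeq starts are shown for the 4 Spata31 genes whose upstream windows overlap no annotated exon, since calls differed within this related group. They are read 5′ to 3′ along the gene from GRCm38.p6 (mm10): Spata31 chr13:64917156-64917405 on the plus strand, Spata31d1b chr13:59712034-59712283 on the plus strand, Spata31d1c chr13:65032808-65033057 on the plus strand and Spata31d1d chr13:59731753-59732002 on the minus strand. Capitals mark a match to the MYB core letters CNGTTG or CNGTTA on either strand.
Spata31: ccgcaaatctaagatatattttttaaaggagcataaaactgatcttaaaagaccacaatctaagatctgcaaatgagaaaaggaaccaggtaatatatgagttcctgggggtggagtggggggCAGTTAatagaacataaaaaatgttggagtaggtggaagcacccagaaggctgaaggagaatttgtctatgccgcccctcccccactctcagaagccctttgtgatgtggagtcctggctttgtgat
Spata31d1b: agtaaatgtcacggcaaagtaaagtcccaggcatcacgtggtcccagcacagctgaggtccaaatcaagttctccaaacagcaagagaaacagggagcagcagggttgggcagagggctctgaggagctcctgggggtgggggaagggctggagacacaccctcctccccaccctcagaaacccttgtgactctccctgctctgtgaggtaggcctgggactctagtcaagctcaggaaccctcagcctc
Spata31d1c: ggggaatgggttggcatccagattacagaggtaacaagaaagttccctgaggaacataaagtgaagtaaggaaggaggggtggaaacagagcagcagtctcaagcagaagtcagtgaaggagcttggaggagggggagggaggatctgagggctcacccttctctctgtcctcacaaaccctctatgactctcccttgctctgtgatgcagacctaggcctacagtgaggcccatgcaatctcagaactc
Spata31d1d: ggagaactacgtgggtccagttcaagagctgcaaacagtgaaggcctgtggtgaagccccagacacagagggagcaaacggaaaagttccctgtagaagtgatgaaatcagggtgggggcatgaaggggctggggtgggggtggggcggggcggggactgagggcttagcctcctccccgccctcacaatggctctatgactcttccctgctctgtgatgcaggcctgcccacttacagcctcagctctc
Over these upstream stretches, Spata31d1a and Spata31d1b were 85.0% identical, and the other pairs among the 5 genes were between 49.1% and 63.2% identical. The most alike pair had the lowest P percentiles of the cluster among the members called there. Spata31d1c and Spata31d1d, which were called in 3 lists and in 1 list, were 63.0% identical.

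Spata24 was the remaining member whose call changed. It was called in LZ (chr18:35661101-35661810, score 1.117, percentile 86.9) and in P (chr18:35661671-35662560, 0.562, 48.9), with the nearest D peak 5907 bp away. The LZ peak over its TSS stood at 85.0, so the lower P value did not come from a change of peak. The annotation holds a second protein-coding entry of the same name, SPATA24, over these peaks.

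Spata1 stood in the middle of each list. Its percentiles were 53.2 in LZ (chr3:146499591-146500140, score 0.617), 65.1 in P (chr3:146498541-146499130, 0.73) and 61.0 in D (chr3:146498621-146499170, 0.629). The higher values in P and D came from peaks 579 and 539 bp from the nearest TSS. The peak over the Spata1 TSS, which it shares with Gng5 on the other strand, went the other way, at 53.2, 43.2 and 26.9 with scores of 0.617, 0.516 and 0.389. The direction for Spata1 from LZ to P therefore depended on which of its peaks was read.

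The other members differed in where they stood highest. Spata45 stood at 99.9 in LZ (chr1:191036251-191037210, score 1.45, rank 100 of the list), 92.2 in P (chr1:191036431-191036960, 1.165) and 80.8 in D (chr1:191036451-191036980, 0.866). Spata21 stood at 97.1 (chr4:141087991-141088950, 1.303), 96.8 (chr4:141087951-141088830, 1.256) and 74.0 (chr4:141087991-141088680, 0.775). Spata9 stood at 95.5 (chr13:75967231-75968070, 1.267), 98.0 (chr13:75967361-75968030, 1.291) and 70.3 (chr13:75967421-75967930, 0.731). These 3 genes were high in LZ and P and lower in D. Spata48 stood lower in LZ than in P, at 81.4 (chr11:11461851-11462190, 1.02), 95.0 (chr11:11462191-11462760, 1.219) and 92.5 (chr11:11461751-11462700, 1.058), and Zpbp lies close to its start. With starts of protein-coding transcripts alone, Spata48 was not called in D and its LZ to P change turned to -21.0. Its values above in LZ, P and D therefore all rest on a start of another transcript type. The element over the next start (chr11:11463781-11464370) stood at 59.7 in LZ and 38.7 in P and had no peak in D. Spata48 also had a further start with a peak in LZ alone (chr11:11488861-11489540, percentile 30.9). Spata4, Spata17 and Spata20 stood between 77.9 and 90.5 in every list. In Spata17 the best peak moved from an internal start in LZ and P to the 5′ start, shared with Gpatch2, in D. The internal start of Spata17 stood at 87.6, 80.7 and 57.2 in LZ, P and D, and its 5′ start at 77.3, 74.5 and 89.8. Spata25 stood at 92.3, 82.4 and 61.7 and Spata3 at 77.5, 79.1 and 61.9, with the best Spata3 peak at another start in P and D than in LZ.

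From LZ to P the Spata genes went both ways, as did all genes. Of 26 members called in both lists, 14 were higher in P (53.8%, against 57.4% of all genes) and 12 lower (46.2% against 42.6%). The median change was 0.2 points, against 1.1 points for all genes. At least 10 points higher in P were 4 members (15.4%, against 16.5% of all genes): Spata48 by 13.7, Spata5 by 13.1, Spata16 by 12.1 and Spata1 by 11.8. At least 10 points lower were 4 members (15.4%, against 14.3%), with changes of -44.5 for Spata32, -38.0 for Spata24, -11.3 for Spata4 and -10.2 for Spata31d1b. Both shares were close to those of all genes on this scale. Ranked among all genes instead, 2 members were at least 10 points higher and 8 lower, beside 14.9% and 14.8% of all genes. The Spata48 change turned to -21.0 when starts of protein-coding transcripts alone were used, and the Spata1 change to -10 at the peak over the TSS. Of the members called in LZ, 2 were not called in P, Spata2l and Spata31d1d, beside 5.14% of all genes called in LZ. The reverse was 0 of 26 members, beside 5.85% of all genes called in P.

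From P to D most members were lower, again as for all genes. Of 24 members called in both lists, 20 were lower in D (83.3%, against 72.8% of all genes) and 4 higher (16.7% against 27.2%). The median change was -5.4 points, against -6.2 for all genes. At least 10 points lower were 11 members (45.8%, against 40.3% of all genes), with the largest changes at Spata2 (-50.5), Spata9 (-27.7), Spata21 (-22.8), Spata13 (-21.2) and Spata25 (-20.7). The other 6, between -17.2 and -11.4, were Spata3, Spata31d1c, Spata31d1a, Spata18, Spata45 and Spata31. At the peak over the TSS, Spata18 changed by -0.6 and Spata31d1a by -0.4, short of 10 points, while Spata1 changed by -16.3. The Spata31d1a start read in D stood at 29.7 in P and 42.3 in D, so its direction depended on the start. Only Spata32 was at least 10 points higher (48.3), beside 4.57% of all genes. Of the members called in P, 2 were not called in D, Spata24 and Spata31d1b, beside 15.6% of all genes called in P, and none was called in D but not in P, beside 1.38% of all genes called in D.

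**Figure D3:**
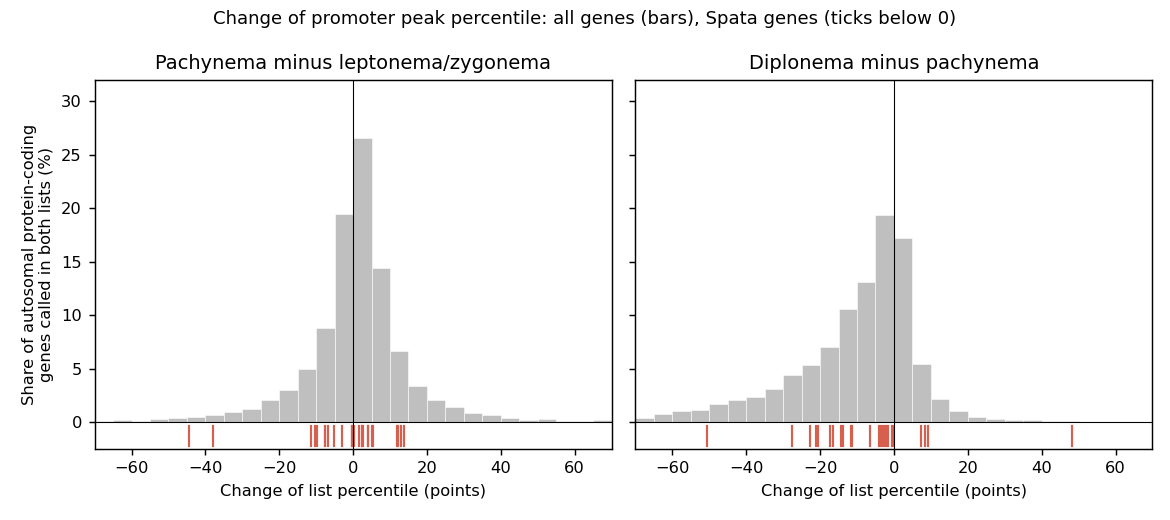
Change of promoter peak percentile (horizontal axis, points) from LZ to P and from P to D. Bars give the share of all autosomal protein-coding genes called in both lists (vertical axis, %), and ticks below 0 are the Spata genes, with medians of 0.2 and -5.4 points against 1.1 and -6.2 for all genes.

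The D list is shorter, so the same percentile stands for another number of peaks. When each list was limited to its 38603 highest-scoring peaks, the median P to D change became 1.2 points for all genes and -0.6 for the 23 members called in both. Of these, 5 were at least 10 points higher in D (Spata1, Spata16, Spata17, Spata31d1a and Spata4), beside 24.2% of all genes, and 4 were lower (Spata2, Spata21, Spata31d1c and Spata9), beside 21.2%. The direction of the median change of all genes therefore turned with this choice. Spata2, Spata21, Spata31d1c and Spata9 were at least 10 points lower in D on every scale tried, which were the full lists, lists of equal size, and ranks among the called genes or among all genes.

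Around the starts, the members held 89 peaks in LZ, 75 in P and 55 in D under 1000 bp from a TSS. Merged over the lists where they overlap or touch, these made 50 elements. Of these, 27 had a peak in all 3 lists (54.0%, against 51.8% of the elements of all genes). A further 12 were in LZ alone (24.0% against 13.8%) and 8 in LZ and P (16.0% against 15.6%). There was 1 in P alone (2.0% against 11.4%), 1 in LZ and D (2.0% against 0.694%) and 1 in P and D (2.0% against 3.43%). No element was in D alone, beside 3.22% of the elements of all genes. Among the 35 elements that covered a TSS in some list, 26 were in all 3 lists (74.3%, against 70.6% for all genes). The 3 in LZ alone (8.57%, against 6.79%) were at Spata2l, Spata31d1d and Spata48. Among the 15 elements beside a TSS, 9 were in LZ alone (60.0%, against 28.3%) and 1 in P alone (6.67%, against 25.2%). These 9 LZ elements stood at percentiles from 12.7 (Spata18) to 56.9 (Spata16), and most were in the lower part of the list.

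**Figure D4:**
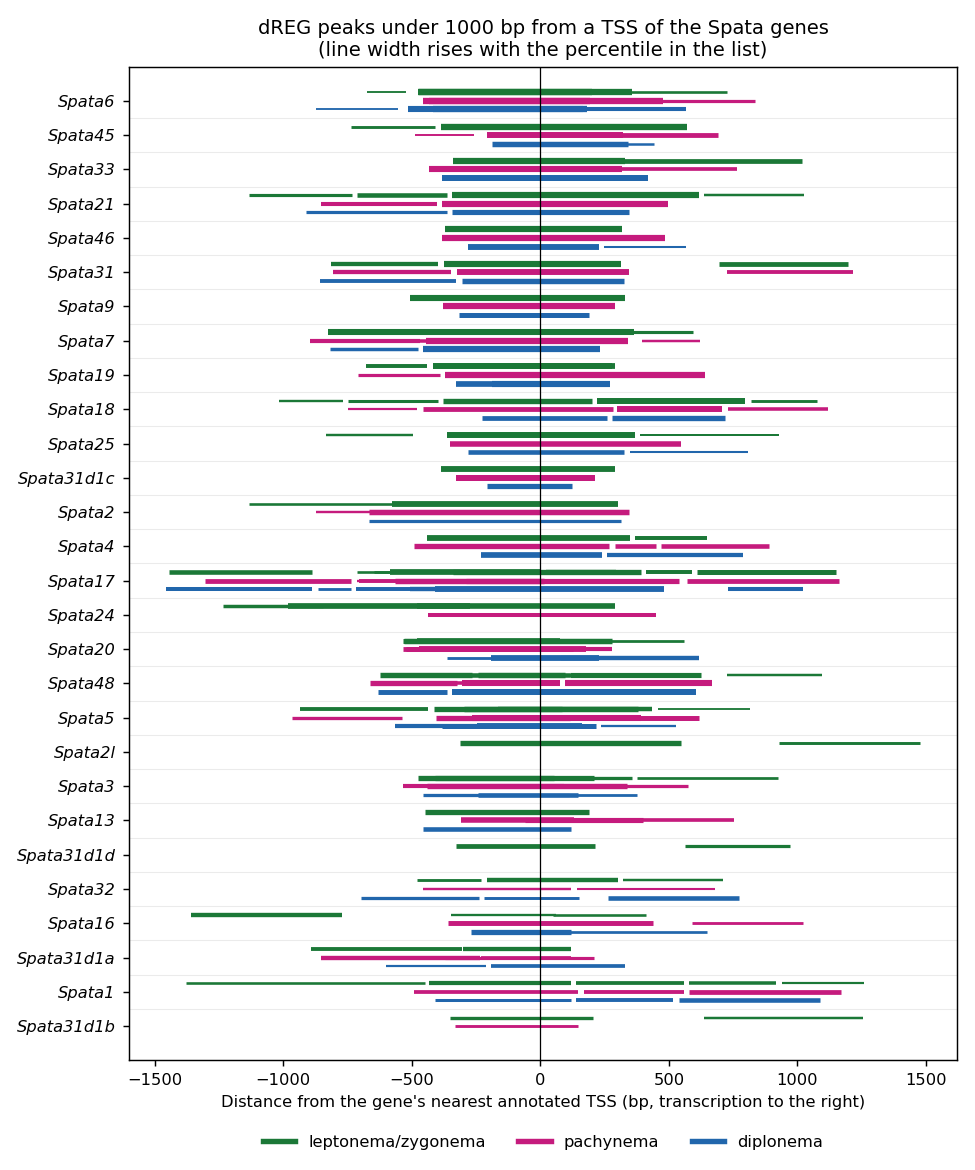
Peaks under 1000 bp from a TSS of each Spata gene, drawn by distance from the gene's nearest annotated TSS (horizontal axis, bp, transcription to the right), 1 row per gene and a colour per list, with thicker lines for higher percentiles. Peaks over the TSS recur in the 3 colours for 24 genes, while Spata2l and Spata31d1d have LZ lines alone.

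In gene bodies, at least 1000 bp from every GENCODE start, 10 members held 21 peaks in LZ (35.7% of members, against 26.9% of all genes), 9 held 24 in P (32.1% against 25%) and 4 held 6 in D (14.3% against 13.7%). All genes together also held fewer such peaks in the shorter D list. Spata16 (6, 7 and 1), Spata17 (4, 5 and 1) and Spata48 (3, 4 and 3) held most of them. The counts are not scaled to gene length, of which the median was 10415 bp in the members and 17629 bp in all genes. In Spata48, 1 of these peaks in each list lay over a start that RefSeq gives and GENCODE M21 does not (chr11:11484151-11484950 in LZ, chr11:11484291-11484880 in P and chr11:11484291-11484630 in D), at percentiles of 90.6, 91.1 and 18.5. That start was high in LZ and P and low in D. What the other body peaks are, and which gene they act on, the lists do not say.

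Promoters of germline genes are often poor in CpG dinucleotides, and RefSeq promoter windows, from 250 bases before to 50 bases after the start, were examined for this property. The RefSeq table held 33 windows for 26 of the 28 members, all but Spata2l and Spata24, and 19174 windows for all autosomal protein-coding genes. The median number of CpG dinucleotides per window was 4 in the Spata genes and 14 in all genes, and the median GC content was 54.0% and 57.3%. In all genes, windows with 0 to 4 CpG had their start inside an LZ peak in 12.6% of 5068 cases, and windows with 20 or more in 83.1% of 7321. In the Spata genes, 16 of 17 windows with 0 to 4 CpG had the start inside an LZ peak, 14 in P and 12 in D, beside 12.1% and 9.61% of all genes for P and D. Of all 33 Spata windows, 31 had the start in an LZ peak, 28 in a P peak and 26 in a D peak. The high shares in each CpG group therefore restate how many members were called and are not a separate result. All 8 Spata windows with 20 or more CpG were in a peak of every list, beside 83.1% of all such windows in LZ, 83.1% in P and 72.7% in D. The windows whose start was in an LZ peak but not in a D peak were those of Spata31d1a (1 CpG), Spata31d1b (2), Spata31d1d (5), 1 window of Spata45 (4) and 1 of Spata48 (4). These windows describe where the members lie in base composition, and several members have more than 1 window.

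**Figure D5:**
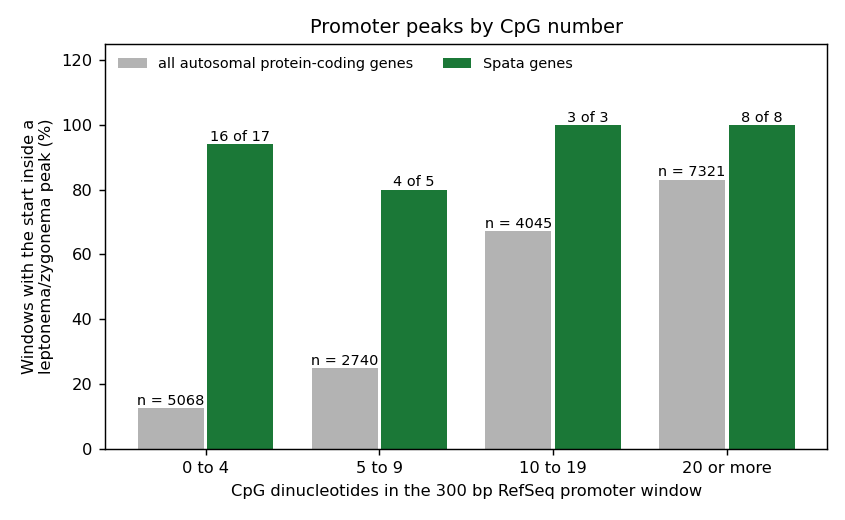
Share of RefSeq promoter windows whose start lay inside an LZ peak (vertical axis, %) by the number of CpG dinucleotides in the 300 bp window (horizontal axis), grey for all autosomal protein-coding genes and green for the Spata genes. In the lowest group, 16 of 17 Spata windows are in a peak against 12.6% of all windows. Over all groups, 31 of 33 Spata windows are in an LZ peak.

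Letters of 3 factor families with roles in the testis were counted in these windows on both strands. MYB core letters (CNGTTG or CNGTTA) were in 20 of 33 Spata windows (60.6%, against 46.4% of all windows). RFX letters (GTTGCCA or GTTGCTA, which can overlap MYB letters at GTTG) were in 4 (12.1%, against 7.24%), at Spata4, Spata7, Spata31d1a and Spata33. The full CREB site TGACGTCA was in 1 window, that of Spata7 (3.03%, against 2.36%), and the CREB part TGACGTAA in 1, at the 5′ start of Spata6 (3.03%, against 0.568%). The windows of Spata31d1c, Spata31d1d and Spata32, among others, held none of these letters. Of the members with a window, the 19 called in LZ with MYB letters in at least 1 window had a median percentile of 89.3, and the 7 without of 80.7, against 84.0 and 83.4 for all called genes. In P the medians were 91.4 and 87.6 (all genes 86.5 and 84.6), and in D 83.5 and 68.0 (all genes 81.3 and 77.2). Some members went against this order, since Spata21 (97.1 in LZ) had no MYB letters and Spata31d1b (23.6 in P) had a match, in the 50 bases after its start. With 6 or 7 members without the letters this is a description only, and a match of letters does not show that a factor was bound.

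Upstream sequences of Spata7, which was high in every list, and of Spata32, which was low in P, are shown as examples of a promoter with and one without these letters. Spata7 (chr12:98627892-98628141, plus strand) and Spata32 (chr11:103218433-103218682, minus strand) are read 5′ to 3′ along the gene from GRCm38.p6, with MYB core letters in capitals.
Spata7: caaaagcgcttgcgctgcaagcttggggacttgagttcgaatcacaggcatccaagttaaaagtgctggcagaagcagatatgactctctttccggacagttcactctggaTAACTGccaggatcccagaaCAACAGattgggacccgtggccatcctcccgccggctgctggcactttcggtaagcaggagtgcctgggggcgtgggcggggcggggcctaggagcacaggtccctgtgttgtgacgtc
Spata32: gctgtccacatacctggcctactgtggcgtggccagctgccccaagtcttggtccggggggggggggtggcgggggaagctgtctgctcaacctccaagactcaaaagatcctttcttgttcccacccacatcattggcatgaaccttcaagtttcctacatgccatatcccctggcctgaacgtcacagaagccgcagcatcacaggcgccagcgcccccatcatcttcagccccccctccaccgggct
The Spata7 stretch has 2 MYB matches and 12 CpG in 250 bases, and the Spata32 stretch has 0 and 8. Both counts belong to the DNA sequence and are the same in every substage by definition. The percentiles of Spata7 ranged from 94.2 to 98.3 and those of Spata32 from 13.2 to 61.5. Because these genes were picked by their percentiles, no relation between letters and rank can be read from them.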

How the data were processed

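Nascent RNA was measured by leChRO-seq in 12 libraries, 4 per substage. Per the paper's methods, reads that were copies of one molecule were dropped using their molecular identifier (PRINSEQ lite), adapters were clipped (cutadapt), and the rest were aligned (BWA) to mm10 together with ribosomal RNA sequence. The authors then merged the 4 libraries of a substage and ran dREG at its default settings, and its version is not given in the sources used here. The authors deposited a dREG score for every peak, without scaling between substages. The deposited p-value of every peak was at most 0.05, and it was used only for 1 alternative. Merging leaves no spread between libraries.

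Peaks were joined to GENCODE M21 starts in Python 3.11.15 with pandas 2.3.3 (called under 1000 bp, ties at their mean rank), and this step was tested on simulated data (1000 gene calls, 0 wrong). Promoter windows and sequences are from RefSeq on GRCm38.p6, aligned with Biopython 1.88. Members, comparison lists and motifs were chosen with earlier results of these data known. The genes given in full were Spata1, members whose call differed, the 5 highest per list and the 5 largest changes per comparison. A further gene with such a symbol is not reported here.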

Additional observations from a re-analysis of the deposited data

How the results depend on the processing

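No paired analysis was possible from these lists, because the libraries of every substage had been merged into 1 list. Of 14 alternatives, those that changed the peaks, starts or distances left 27 to 28 members called in LZ, 24 to 26 in P and 22 to 24 in D (all genes 53.4% to 60.3%, 53.8% to 60.8% and 43.1% to 52.3%), apart from the count without the 10 members that share a promoter, which was 18 in LZ, 17 in P and 16 in D by construction. Under that setting 1 member was in LZ but not P and 1 in P but not D, 1 was at least 10 points higher and 2 lower from LZ to P, and the median P to D change was -11.4. With lists of equal size, 1 member was in P but not D and 1 in D but not P, the medians were 80 in LZ and 85.5 in P, and 5 members were higher and 4 lower from P to D. With scores of at least 0.5, 1 member was in D but not P, the medians were 82.0 in LZ and 63.9 in D, 2 members were higher from P to D, and the median P to D change was -12.5. With p-values of at most 0.01, 2 members were higher from P to D. With the gene's 5′ end alone, 1 member was in P but not LZ and 3 were higher from P to D. Ranked among called genes, the medians were 64.2, 66.5 and 50.5, with 9 members lower from LZ to P (all genes 24.0%) and 4 higher from P to D (19.4%). Ranked among all genes, they were 78.2, 79.5 and 74.1, with 2 members higher and 8 lower from LZ to P (all genes 14.9% and 14.8%) and 4 higher and 4 lower from P to D (19% and 15.2%). With 20 points as the size, 0 members were higher and 2 lower from LZ to P and 5 lower from P to D. With 5 points, 9 were lower from LZ to P and 4 higher from P to D. The shares of all genes at these sizes are not given here, so these counts say nothing particular to the members. With the peak over the TSS, or the nearest peak, 7 were lower from LZ to P (all genes 14.8% and 16.2%).

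The LZ to P change of Spata1 turned to -8.0 with peaks under 500 bp, -10 with the peak over the TSS and -10 with the nearest peak. That of Spata48 turned to -21.0 with starts of protein-coding transcripts alone. The P to D change of Spata31d1a turned to 19.1 with equal lists, 12.6 with the 5′ end alone and 5.7 ranked among all genes. Changes of under 10 points also changed sign: from LZ to P, Spata3 to -25.9 with the 5′ end alone and Spata31d1a to -11.6 with the peak over the TSS or the nearest peak, and from P to D, Spata1 to between 1.1 and 22.8 under 4 alternatives and Spata20 to between 4.2 and 5.7 under 3. Other changes of sign were by less than 5 points. The cause of these turns was not tested. Of the other values, 139 summary values stayed within 1.5 times the count or 5 points of the median reported, 440 single-gene changes stayed within 5 points and 124 moved further. The depth of each merged list was not analysed here, so a missing peak says that none was called, not that the gene was silent.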
